A study of Mus musculus with 6 samples.

Results

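The genes examined here encode the cGAS-STING pathway, which senses DNA in the cytosol, and the nucleases that clear nucleic acids before they are sensed. They were chosen by name: the synthase Cgas, the adaptor Sting1, the kinases Tbk1 and Ikbke, the exonuclease Trex1, the dNTP hydrolase Samhd1 and the RNase H2 subunits Rnaseh2a, Rnaseh2b and Rnaseh2c. These are 9 of the 55487 genes listed, and all 9 had enough counts to be among the 12669 genes tested. RNA was sequenced from B16F10, a mouse melanoma cell line, after lentiviral infection and puromycin selection. The shCtr cells carried a scramble hairpin (n = 3) and are labelled WT. The shOSGEP cells carried hairpin #2 against OSGEP (n = 3) and are labelled KD OSGEP. OSGEP carries the enzyme activity of KEOPS, a complex that modifies tRNAs with t6A. The 3 libraries of a group came from independent infections with 1 hairpin sequence, so an effect of that sequence and of the loss of OSGEP cannot be told apart.

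cGAS binds double-stranded DNA in the cytosol and makes the second messenger cGAMP. cGAMP binds STING at the endoplasmic reticulum, STING moves to the Golgi and recruits TBK1 or its relative IKKε, and the kinase phosphorylates IRF3, which switches on type I interferon genes. TREX1, SAMHD1 and RNase H2 keep this sensing quiet by degrading cytosolic DNA, limiting the products of reverse transcription and removing ribonucleotides from DNA, and inherited loss of any of them causes the interferonopathy Aicardi-Goutières syndrome. Melanoma cells often carry a silenced cGAS or STING gene, so the first question for such a line is whether the pathway is transcribed at all.

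The libraries held 18915587 to 29487384 counts. A count of 3, taken as the floor, equalled 0.116 to 0.147 CPM (counts scaled to the library size after TMM scaling, the unit used below unless a value is given per kilobase). Osgep itself stood at 20.6, 58.7 and 21.8 CPM in the shCtr replicates, against 4.28, 0.542 and 5.51 CPM in the shOSGEP replicates, in order of replicate number as everywhere below, which is the direction of its label in every library. All 7 melanocyte markers were tested, while none of 8 immune cell markers had enough counts and 5 of them, Ptprc, Cd3e, Cd8a, Itgam and Adgre1, were at 0 in all libraries. The summed level of the immune markers was 0 in every shCtr library and 0.0424 to 0.542 CPM in shOSGEP. The 7 melanocyte markers summed to 17710, 29600 and 17040 CPM in the shCtr replicates and to 18080, 3551 and 15390 CPM in the shOSGEP replicates. The sum was thus far below the others in shOSGEP replicate 2 and above them in shCtr replicate 2. The single markers did not all follow the sum in shCtr replicate 2. Pmel was at 3493, 13300 and 4561 CPM in the shCtr replicates, and Mlana, Tyr, Dct and Sox10 were also highest of the shCtr libraries in replicate 2. Tyrp1 lay between the other shCtr libraries there, and Mitf was lowest, at 338.8, 29.35 and 243.5 CPM in the shCtr replicates. Of 6 fibroblast and endothelial markers 2 were tested, Cdh5 and Kdr were at 0, and the sum was 5.06 to 11.3 CPM in shCtr and 13.1 to 19.8 CPM in shOSGEP. Whether these shifts have a part in the values below was not tested. The library shCtr replicate 2 stood apart, with a TMM factor of 0.69 against 1.04 to 1.14 in the others and 0.585% of its counts from mitochondrial genes against 1.30 to 4.75%, so each comparison of the 9 genes is also given without it. Without shOSGEP replicate 2, 0 of the 9 genes passed the threshold of the study given below, where 0.516% of all genes did.

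Counts were assigned to all 9 genes in every library, although those of Trex1 could not be told apart from those of Atrip. None of the 9 passed a threshold in the fit of all 6 libraries without block or offsets, while alternative fits given below passed some of them. No gene of the 9 passed an adjusted p under 0.05, where 0% of all genes tested did (edgeR quasi-likelihood F-test, Benjamini-Hochberg), and the smallest adjusted p over all genes was 0.9997. Osgep itself, at a Log2FC of -3.29, also had an edgeR adjusted p of 0.9997. A miss at this threshold therefore does not show that a gene was unchanged. At an unadjusted p under 0.05 the count was 0 of 9 with edgeR, against 256 genes of all tested. With DESeq2 it was 0 of 9, against 470 of 21785 genes. At an adjusted p under 0.05 DESeq2 called 17 genes, among them Osgep (DESeq2 adjusted p = 0.034), and 0 of the 9. None passed the threshold of the study either, a Log2FC beyond 0.5 with an unadjusted p under 0.05, which 2.02% of all genes passed, 1.59% upwards and 0.426% downwards. The shCtr and shOSGEP values did not overlap for 1 of the 9, Rnaseh2b, against 6.36% of all genes. The Log2FC was positive for 4 and negative for 5, and its median was -0.13 for the 9 and -0.03 over all genes tested. These are RNA levels of whole cultures, in which fewer cells of a type and less RNA per cell cannot be told apart.

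**Figure D1:**
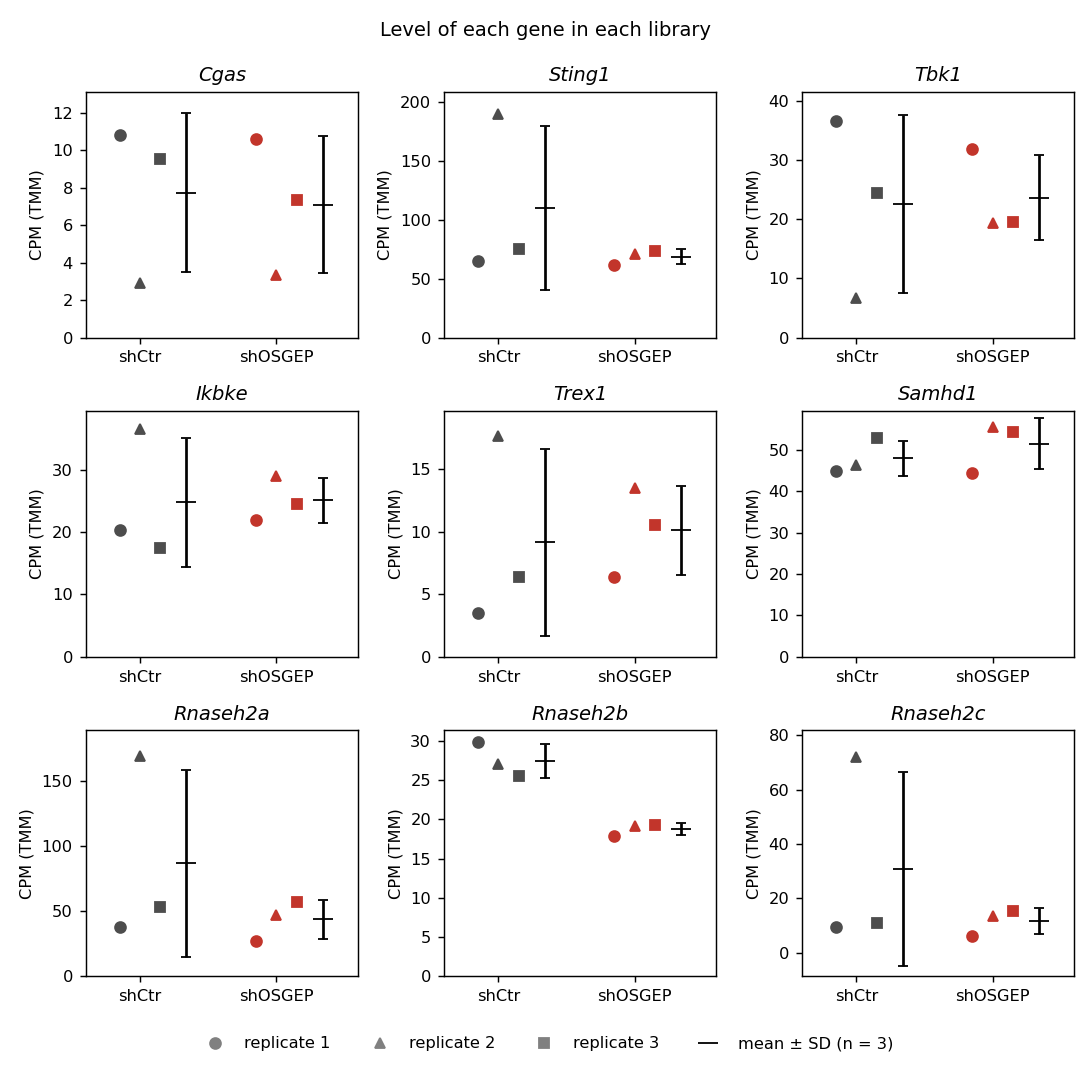
Level of each of the 9 genes in CPM (vertical axes, linear, 1 scale per gene) in the 3 shCtr libraries (grey) and the 3 shOSGEP libraries (red); the marker shape gives the replicate number and the bars the mean ± SD. The triangle of shCtr replicate 2 is the lowest or highest shCtr point for Cgas, Sting1, Tbk1, Ikbke, Trex1, Rnaseh2a and Rnaseh2c, and only in the Rnaseh2b panel do all shOSGEP points, 17.9 to 19.3 CPM, lie below all shCtr points, 25.5 to 29.8 CPM.

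For 7 of the 9 genes the difference between shCtr replicate 2 and the other shCtr libraries was larger than that between the groups, and it was positive for GC-rich and negative for GC-poor transcripts. In this library Tbk1, whose longest transcript has a GC content of 45.4%, differed by -2.15 from the mean of the other shCtr libraries in log2 CPM, and Cgas, at 45.9% GC, by -1.77. Rnaseh2c, at 58.1% GC, lay 2.81 above, Rnaseh2a (54.2%) 1.91 above, Trex1 (57.8%) 1.88 above, Sting1 (51.2%) 1.45 above and Ikbke (54.6%) 0.96 above. Samhd1 (49.3%) and Rnaseh2b (45.2%) were close to the other libraries, at -0.07 and -0.03. Across the 9 genes Pearson's r of GC content with this difference was 0.89, a description over 9 genes of the same 3 libraries. The shift was not particular to these genes: over all genes tested, the median difference was -2.30 for 2950 genes below 45% GC, -0.59 for 3306 genes of 45 to 50%, 0.61 for 3295 genes of 50 to 55% and 1.20 for 3107 genes at or above 55%. Rnaseh2b lay above the median of its GC class in this library and Tbk1 and Cgas below it.

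**Figure D2:**
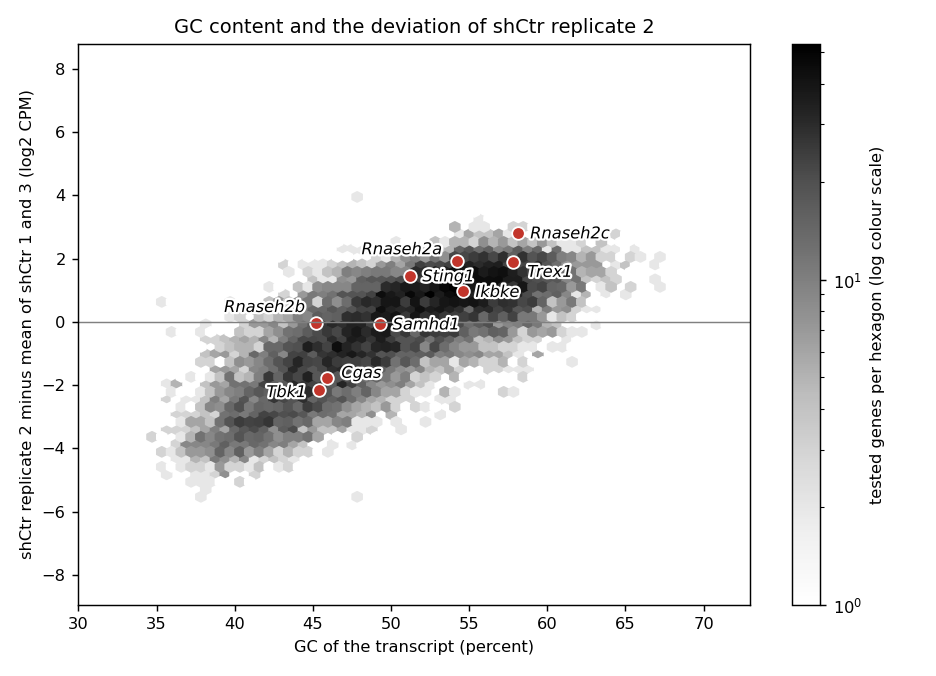
GC content of each gene's transcript (horizontal axis, percent) against its log2 CPM in shCtr replicate 2 minus the mean of shCtr replicates 1 and 3 (vertical axis), as a density of the tested genes (hexagons, log colour scale) with the 9 genes marked in red. The cloud rises with GC content; Tbk1 and Cgas lie low at -2.15 and -1.77, Rnaseh2c lies highest of the 9 at 2.81, and Rnaseh2b and Samhd1 lie next to 0.

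The contrast in composition can be read from the coding sequences of Tbk1 and Rnaseh2c. Of the 9 genes they had the lowest and the highest difference between that library and the other shCtr libraries. For each, 90 coding bases within 1 exon are shown, chosen as the stretch whose GC content is nearest to that of the transcript, with G and C in capitals (GENCODE M21, GRCm38). The Tbk1 stretch is on the minus strand of chr10:121576275-121576364 and the Rnaseh2c stretch on the plus strand of chr19:5602231-5602320.
Tbk1, 45.6% GC: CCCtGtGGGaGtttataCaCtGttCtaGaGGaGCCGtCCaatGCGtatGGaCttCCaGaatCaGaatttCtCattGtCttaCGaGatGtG
Rnaseh2c, 57.8% GC: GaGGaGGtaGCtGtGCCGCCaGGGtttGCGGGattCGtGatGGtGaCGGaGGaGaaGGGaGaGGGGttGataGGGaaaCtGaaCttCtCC

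Cgas (ENSMUSG00000032344), the sensor and cGAMP synthase, is encoded on chromosome 9 (78430526 to 78443237, minus strand, GRCm38 as below). It was transcribed at a low level, with 10.8, 2.90 and 9.50 CPM in the shCtr replicates (254, 59 and 206 counts), against 10.6, 3.33 and 7.34 CPM in the shOSGEP replicates (228, 86 and 173 counts). Both replicate 2 libraries were low, the others lay between 7.34 and 10.8 CPM, and the groups overlapped. The means were 7.73 ± 4.23 and 7.09 ± 3.64 CPM (SD, n = 3 each). The Log2FC was -0.13 (SE 0.657, 95% interval -1.63 to 1.38, edgeR adjusted p = 0.9997), an interval that leaves room for a change of either sign. Without shCtr replicate 2 the Log2FC was -0.52, without shOSGEP replicate 2 it was 0.22, and without both it was -0.18.

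Sting1 (ENSMUSG00000024349), the cGAMP receptor and adaptor, is encoded on chromosome 18 (35733679 to 35740554, minus strand). It was found at 64.7, 189.7 and 74.8 CPM in the shCtr replicates, against 61.2, 71.0 and 73.5 CPM in the shOSGEP replicates. A single library, shCtr replicate 2, was high, and the other 5 lay between 61.2 and 74.8 CPM with the groups overlapping. The means were 109.7 ± 69.4 and 68.6 ± 6.50 CPM (SD, n = 3 each), with a Log2FC of -0.68 (SE 0.50, 95% interval -1.82 to 0.47, edgeR adjusted p = 0.9997). In pairs of the same replicate number the log2 ratio was -0.08, -1.42 and -0.02, lower in 3 of 3 pairs, which 17.2% of all genes were. Without shCtr replicate 2 the Log2FC was -0.02.

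The kinases that STING recruits were at similar levels, and shCtr replicate 2 moved them in opposite directions. Tbk1 (ENSMUSG00000020115, chromosome 10, 121546455 to 121586787, minus strand), the kinase that phosphorylates STING and IRF3, was found at 36.6, 6.69 and 24.4 CPM in the shCtr replicates, against 31.9, 19.3 and 19.6 CPM in the shOSGEP replicates. The lowest and the highest of the 6 values were both shCtr libraries, so the shOSGEP values lay inside the shCtr range. The Log2FC was 0.06 (SE 0.624, 95% interval -1.37 to 1.49, edgeR adjusted p = 0.9997) and -0.37 without shCtr replicate 2.

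Ikbke (ENSMUSG00000042349, chromosome 1, 131254343 to 131279606, minus strand), which encodes IKKε, was found at 20.3, 36.6 and 17.5 CPM in the shCtr replicates, against 21.9, 28.9 and 24.5 CPM in the shOSGEP replicates. Here shCtr replicate 2 was the highest library, the other shCtr libraries were below all shOSGEP libraries, and the groups overlapped. The Log2FC was 0.02 (SE 0.448, 95% interval -1.01 to 1.05, edgeR adjusted p = 0.9997) and 0.41 without shCtr replicate 2. Per kilobase of transcript, Tbk1 exceeded Ikbke in shCtr replicates 1 and 3 and shOSGEP replicate 1 (12.1, 8.07 and 10.6 CPM per kb against 6.23, 5.38 and 6.73), and Ikbke exceeded Tbk1 in shCtr replicate 2 and shOSGEP replicates 2 and 3 (11.3, 8.90 and 7.53 against 2.21, 6.38 and 6.48).

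Trex1 (ENSMUSG00000049734, chromosome 9, 109057933 to 109059734, minus strand), the main 3′ exonuclease for cytosolic DNA, could not be counted apart from its neighbour. Atrip, which encodes the partner of the checkpoint kinase ATR, is transcribed from the same strand, and its exons cover 100% of the 1147 exonic bases of Trex1. Of the stretches of 31 bases in Trex1 transcripts, 97.6% also occur in Atrip transcripts. The first 90 of the 942 coding bases of Trex1 (chr9:109058832-109058921, minus strand, GENCODE M21, GRCm38) show this, since 3 of 9 annotated Atrip transcripts hold them and 2 hold the whole Trex1 coding sequence, 1 annotated as a nonsense-mediated decay target and 1 as a retained intron. The start codon is in capitals.
Trex1: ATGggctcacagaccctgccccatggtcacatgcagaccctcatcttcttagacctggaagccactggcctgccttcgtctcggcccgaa

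The counts the authors assigned to Trex1 gave 3.53, 17.6 and 6.36 CPM in the shCtr replicates (83, 359 and 138 counts), against 6.37, 13.5 and 10.6 CPM in the shOSGEP replicates (137, 348 and 249 counts). Both replicate 2 libraries were highest in their group and the groups overlapped. The Log2FC was 0.14 (SE 0.662, 95% interval -1.37 to 1.66, edgeR adjusted p = 0.9997) and 1.04 (unadjusted p = 0.0773) without shCtr replicate 2. It was -0.08 without shOSGEP replicate 2 and 0.78 without both. The summed counts of Trex1 and Atrip gave 29.5, 60.1 and 36.1 CPM in the shCtr replicates, against 32.6, 40.1 and 38.2 CPM in the shOSGEP replicates, with a Log2FC of -0.18 (SE 0.427). The share of that sum assigned to Trex1 was 12.0, 29.4 and 17.6% in shCtr and 19.6, 33.6 and 27.7% in shOSGEP, higher in shOSGEP in each same-numbered pair, with the groups overlapping.

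Samhd1 (ENSMUSG00000027639, chromosome 2, 157097533 to 157135265, minus strand), which hydrolyses dNTPs and so restricts reverse transcription, was the most even of the 9. It was found at 44.9, 46.2 and 52.7 CPM in the shCtr replicates, against 44.3, 55.5 and 54.4 CPM in the shOSGEP replicates. No library stood apart and the groups overlapped. The means were 47.9 ± 4.19 and 51.4 ± 6.15 CPM (SD, n = 3 each), with a Log2FC of 0.10 (SE 0.371, edgeR adjusted p = 0.9997). Its 95% interval, -0.75 to 0.95, was the narrowest of the 9, and the Log2FC was 0.07 without shCtr replicate 2.

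RNase H2, which cuts RNA in hybrids with DNA and excises single ribonucleotides from DNA, is built from a catalytic subunit A and the subunits B and C. The fitted Log2FC of all 3 subunit genes was negative, none passed either threshold, and the values of A and C rested on shCtr replicate 2 while that of B did not. Rnaseh2a (ENSMUSG00000052926, chromosome 8, 84956610 to 84969767, minus strand) was found at 37.9, 169.2 and 53.3 CPM in the shCtr replicates, against 27.1, 47.2 and 56.7 CPM in the shOSGEP replicates. Apart from shCtr replicate 2 all libraries lay between 27.1 and 56.7 CPM, with the groups mixed. The Log2FC was -0.99 (SE 0.631, 95% interval -2.44 to 0.46, edgeR adjusted p = 0.9997) and -0.06 without shCtr replicate 2. Part of its exons overlap other genes: 339 bases on the same strand are shared with Gm49661, which was at 0 in all libraries, and 177 bases lie opposite Prdx2, in libraries not stated to keep the strand. Prdx2 had several times the CPM of Rnaseh2a, not scaled by length, and peaked in the same library, at 241.3, 969.4 and 321.3 CPM in the shCtr replicates, against 156.2, 253.0 and 320.0 CPM in the shOSGEP replicates (Log2FC -1.07). Its part in the counts of Rnaseh2a was not tested.

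Rnaseh2c (ENSMUSG00000024925, chromosome 19, 5601873 to 5607019, plus strand) was found at 9.56, 72.0 and 10.9 CPM in the shCtr replicates, against 6.23, 13.6 and 15.4 CPM in the shOSGEP replicates. The value of shCtr replicate 2 was far above all others and the remaining libraries overlapped. The Log2FC was -1.39 (SE 0.835, 95% interval -3.31 to 0.52, edgeR adjusted p = 0.9997), the largest in size of the 9, and it turned to 0.20 without shCtr replicate 2. Conversely, without shCtr replicate 1, which leaves shCtr replicate 2 as 1 of 2 control libraries, Rnaseh2c reached -1.81 (unadjusted p = 0.0490) and was the 1 of 9 past the threshold of the study, where 3.5% of all genes were. Of its 1715 exonic bases 426 lie opposite exons of Kat5, and the kit was not stated to keep the strand. Kat5, not scaled by length, was at 27.19, 49.85 and 33.11 CPM in the shCtr replicates, against 19.87, 28.52 and 27.19 CPM in the shOSGEP replicates (Log2FC -0.54). It was also highest in shCtr replicate 2, and its part in the counts of Rnaseh2c was not tested.

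Rnaseh2b (ENSMUSG00000021932, chromosome 14, 62292589 to 62372992, plus strand) was found at 29.8, 27.1 and 25.5 CPM in the shCtr replicates (702, 551 and 553 counts), against 17.9, 19.2 and 19.3 CPM in the shOSGEP replicates (384, 495 and 455 counts). Every shOSGEP library lay below every shCtr library, and the spread within each group was small, with means of 27.5 ± 2.19 and 18.8 ± 0.798 CPM (SD, n = 3 each), a 0.684-fold level. The Log2FC was -0.55 (SE 0.382, 95% interval -1.42 to 0.33), which missed the thresholds (edgeR unadjusted p = 0.188, adjusted p = 0.9997). An exact two-sided permutation test gave p = 0.1, the smallest that 3 libraries against 3 can give. The log2 ratio was -0.74, -0.50 and -0.40 in the 3 same-numbered pairs, and the Log2FC stayed negative under all 18 alternatives, between -0.86 and -0.44, with -0.56 without shCtr replicate 2. As 1 of 9 genes without overlap beside 6.36% of all genes, it is a description of this gene and gives no result about the group.

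Removing the trends of GC content and transcript length from each library brought shCtr replicate 2 nearer to the other shCtr libraries for 7 of the 9 genes, all but Samhd1 and Rnaseh2b. After this correction Rnaseh2c stood at 14.0, 29.8 and 13.8 CPM in the shCtr replicates, against 10.0, 10.9 and 16.3 CPM in the shOSGEP replicates, so shCtr replicate 2 was still 1.10 above the other shCtr libraries in log2 units. Tbk1 stood at 27.6, 12.7 and 24.3 CPM in the shCtr replicates, against 23.9, 17.6 and 20.6 CPM in the shOSGEP replicates, with shCtr replicate 2 at a difference of -1.03. The groups overlapped for both genes after the correction. Rnaseh2b moved the other way, to 24.4, 40.2 and 29.3 CPM in the shCtr replicates, against 15.6, 14.1 and 22.2 CPM in the shOSGEP replicates, so that shCtr replicate 2, which had been level with the others (-0.03), stood 0.59 above them in log2 units. Samhd1 went from -0.07 to 0.26.

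With these trends as offsets in the edgeR fit, 1 of 9 genes passed the threshold of the study, Rnaseh2b at a Log2FC of -0.86 (SE 0.303, unadjusted p = 0.0229, adjusted p = 0.805), where 5.46% of all genes passed. That value includes the raised shCtr replicate 2. With the offsets and the replicate number as a block, 2 of 9 passed, where 6.86% of all genes did: Rnaseh2b at -0.85 (unadjusted p = 0.0265) and Trex1 at 0.66 (SE 0.214, unadjusted p = 0.0278), each with an edgeR adjusted p of 0.533. The corrected Trex1 values were 5.25, 7.31 and 8.13 CPM in the shCtr replicates, against 10.3, 10.7 and 11.3 CPM in the shOSGEP replicates, no longer overlapping, but they carry the uncertainty of the reads shared with Atrip. The replicate block alone called 0 of 9, where 2.94% of all genes passed.

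**Figure D3:**
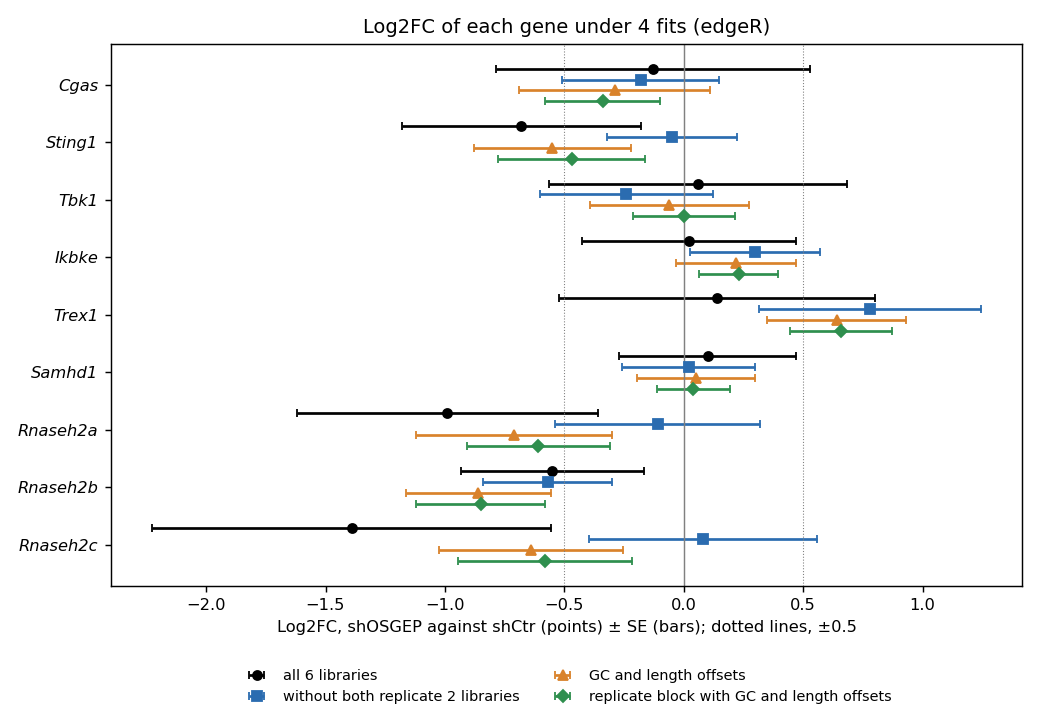
Log2FC of shOSGEP against shCtr (horizontal axis, points) with its SE (bars) for each of the 9 genes under 4 edgeR fits, with dotted lines at ±0.5. Rnaseh2b is below -0.5 in all 4 (-0.55, -0.57, -0.86 and -0.85), Sting1, Rnaseh2a and Rnaseh2c move to -0.05, -0.11 and 0.08 without both replicate 2 libraries, and Samhd1 stays within 0.10 of 0.

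Per kilobase of transcript, Sting1 was the most abundant of the 9 in every library and Cgas the least. The means over the 6 libraries were 38.8 CPM per kb for Sting1 (range 26.6 to 82.5), 21.9 for Rnaseh2a, 18.9 for Rnaseh2c, 15.5 for Rnaseh2b, 12.6 for Samhd1, 8.91 for Trex1, 7.67 for Ikbke, 7.63 for Tbk1 and 1.83 for Cgas (range 0.716 to 2.66). Every neighbouring pair in this order had overlapping ranges over the 6 libraries, although within each library Sting1 was above Rnaseh2a and Cgas below Tbk1. The B subunit, the most even subunit gene, ranged from 12.0 to 19.96 CPM per kb, against 9.10 to 56.8 for A and 5.54 to 63.9 for C.

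How the genes varied together over the 6 libraries again separated Rnaseh2b and Samhd1 from the rest. Pearson's r of log2 CPM was 0.99 between Rnaseh2a and Rnaseh2c, 0.97 between Sting1 and Rnaseh2c and 0.85 between Cgas and Tbk1, but -0.97 between Tbk1 and Rnaseh2c and -0.95 between Sting1 and Tbk1. Rnaseh2b reached 0.42 with Rnaseh2a and 0.38 with Rnaseh2c, and Samhd1 0.06 and 0.01. The 6 points include the shCtr replicate 2 library, which is far out for the GC-rich and GC-poor genes, so these values are given as a description only.

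Among 10977 tested genes with a mean of at least 50 counts, those most like Rnaseh2b over the 6 libraries were Alyref, an mRNA export factor (r = 0.984), and Ube2n, a ubiquitin-conjugating enzyme (r = 0.972). Those most like Samhd1 were Odf3l1 (0.959) and Cdk18 (0.952). For Cgas they were Abcd3 (1.00) and Washc2 (0.999), for Sting1 Ei24 (0.999) and Grasp (0.998), and for Tbk1 Stxbp3 and Zmym1 (0.999 each). For Ikbke they were Nradd (0.990) and A930005H10Rik (0.982), for Trex1 Sars (0.994) and Des (0.993), for Rnaseh2a Ap1m1 and Wrap53 (0.999 each) and for Rnaseh2c Abtb1 and Ppp1r14b (0.998 each). Each value is the highest picked from many candidates over 6 libraries, among them shCtr replicate 2. They are therefore a description only and no evidence of shared regulation.

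Of 74 further genes of the pathway, grouped by role, 61 were tested, and 3 passed the threshold of the study, all higher in shOSGEP and all in the list of outputs (1.59% of all genes passed upwards). These were Ifit1 (Log2FC 1.88), Ifit3 (1.20) and Cxcl10 (1.18), with edgeR unadjusted p of 0.0175, 0.0313 and 0.0425 and an adjusted p of 0.9997 each. Their levels did not overlap between groups: Ifit1 was at 9.01, 2.95 and 7.05 CPM in the shCtr replicates, against 18.1, 39.4 and 12.4 CPM in the shOSGEP replicates. With the replicate block 7 of the further genes passed, 6 outputs and Ifih1, where 2.94% of all genes did, and without shOSGEP replicate 2 none passed, where 0.516% of all genes did. Without shCtr replicate 2, 5 outputs passed, where 2.21% of all genes did, with Ifit1 at 1.53, Ifit3 at 1.17 and Cxcl10 at 0.99, the last no longer past the threshold. All 7 tested outputs had a positive Log2FC with a median of 1.23 in the fit of all 6 libraries. Without shCtr replicate 2 all 7 were positive with a median of 1.28, and without shOSGEP replicate 2 the count was 6 of 7 with a median of 0.82. The interferon genes Ifnb1 and Ifna4 were listed at 0 in every library. The rise of interferon-stimulated genes in this series was known when this list was written, so it is no independent evidence. The outputs are also not particular to cGAS-STING, since the paper describes interferon and chemokine production downstream of RIG-I. Which sensor had a part in their levels was not tested.

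In the fit of all 6 libraries without block or offsets, none of the other lists held a gene past the threshold of the study, and several of their medians and leading genes rested on shCtr replicate 2. The 6 tested regulators of cGAS had a median Log2FC of -0.50, or -0.30 without shCtr replicate 2, and Zcchc3 was listed at 0. Parp1 was the smallest in p (-0.71, edgeR unadjusted p = 0.155), stood at -0.66 without that library and passed the threshold with block and offsets (-0.72, unadjusted p = 0.0380). Of the genes that degrade or transport cGAMP 7 of 10 were tested, with a median of 0.31 (0.16 without shCtr replicate 2), and the smallest p was that of Enpp1, the hydrolase of extracellular cGAMP (0.98, or 0.76 without it). The 12 genes of STING traffic and turnover had a median of -0.20, which turned to 0.04 without shCtr replicate 2, and the ubiquitin ligase Rnf5, the smallest in p at -0.68, stood at -0.07 without it. The 8 adaptors and partners of TBK1 and IKKε had a median of 0.25 (0.28 without shCtr replicate 2). Optn, an autophagy receptor that binds TBK1, was at 37.0, 35.2 and 36.8 CPM in the shCtr replicates, against 48.7, 44.5 and 40.5 CPM in the shOSGEP replicates, without overlap, at a Log2FC of 0.30 (0.27 without that library).

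Among other DNA sensors 9 of 11 were tested, with a median of -0.14, or -0.34 without shCtr replicate 2. Ddx41 was the smallest in p at -0.57 and stood at -0.05 without that library. Of the other clearance and interferonopathy genes 12 of 16 were tested, with a median of -0.05, or 0.14 without shCtr replicate 2. In this list Ifih1, which encodes the RNA sensor MDA5 and is itself interferon-stimulated, was at 6.50, 1.57 and 6.09 CPM in the shCtr replicates, against 12.3, 8.37 and 8.53 CPM in the shOSGEP replicates. Its groups did not overlap, and its Log2FC of 1.04 had an unadjusted p of 0.127 (edgeR), or 0.0492 with the replicate block, and its Log2FC was 0.62 without shCtr replicate 2. Of the 61 tested further genes of all lists, 7 had groups without overlap, against 6.36% of all genes. Among these 7, Ifit1, Ifit3, Cxcl10, Optn and Ifih1 were higher in shOSGEP, and Xrcc5 (Log2FC -0.30) and Dnase1l1 (-0.56) were lower.

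**Figure D4:**
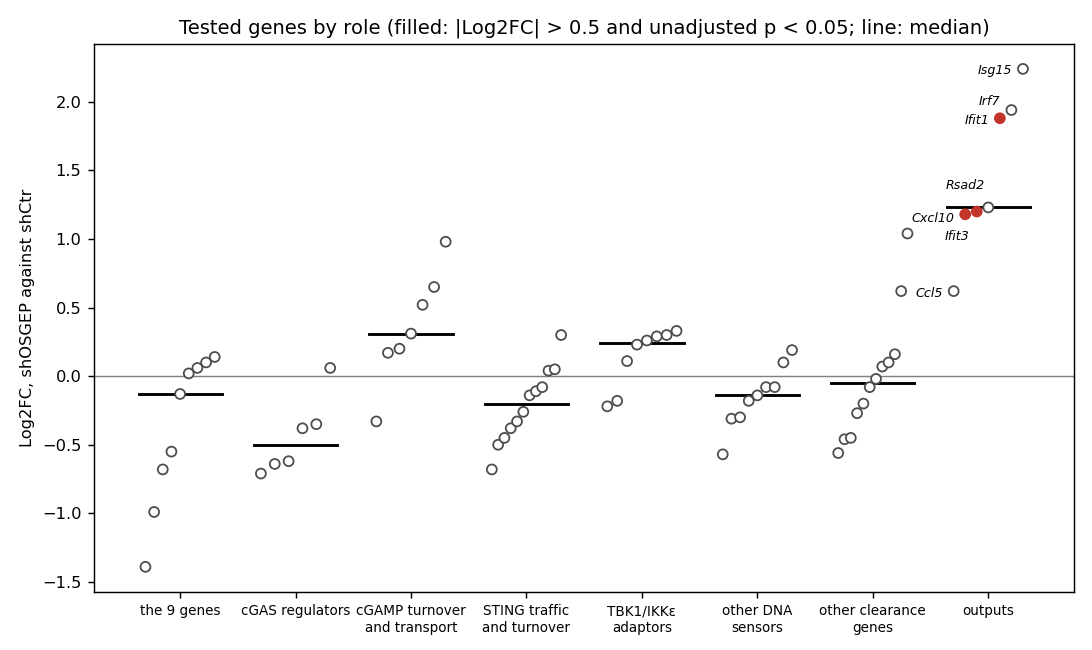
Log2FC of shOSGEP against shCtr (vertical axis) of every tested gene, 1 column for the 9 genes and 1 for each list of further pathway genes, with a line at the median of the column; filled points passed a Log2FC beyond 0.5 with an unadjusted p under 0.05. All 7 outputs lie above 0, with Ifit1, Ifit3 and Cxcl10 filled, and no point of the other columns is filled.

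The promoters of the outputs and of the 9 genes were searched for the core of the interferon-stimulated response element. RefSeq windows from 250 bases before to 50 bases after the start of transcription (GRCm38.p6) were matched by symbol for 7 of the 9 genes, all but Sting1 and Rnaseh2b, and for 8 of the 9 listed outputs, all but Ccl5. This core, GAAANNGAAA on either strand, occurs in 3.44% of all 32851 windows, in 6 of the 8 outputs and in 0 of the 7 genes. Ifna4, listed at 0 in every library, is among the 6, while Ifnb1 and Irf7 (Log2FC 1.94) have no match. The outputs were listed with the rise of interferon-stimulated genes known, so their share is no independent evidence. The first match is shown for each output that passed the threshold, of 2 matches in Ifit1 and in Ifit3, with the matched bases in capitals and 10 bases on each side, read along the strand of the gene. They lie at chr19:34640775-34640804 (plus strand) for Ifit1, chr19:34583363-34583392 (plus strand) for Ifit3 and chr5:92349083-92349112 (minus strand) for Cxcl10. A match is a match of letters, and a window without it says nothing about other parts of the gene.
Ifit1, match starting 104 bases before the start: caggcttcagTTTCACTTTCcagtctcagt
Ifit3, match starting 156 bases before the start: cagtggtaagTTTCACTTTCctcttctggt
Cxcl10, match starting 213 bases before the start: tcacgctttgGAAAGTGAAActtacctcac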

How the data were processed

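RNA was sequenced from 3 shCtr and 3 shOSGEP B16F10 libraries, with groups and replicate numbers taken from the labels. PolyA RNA was prepared from 500 ng of total RNA with a TruSeq V2 kit, not stated to keep the strand, and read in pairs of 100 bases. The authors trimmed reads with TrimGalore, aligned them to GRCm38 with STAR 2.6.1d and quantified genes with Salmon 1.4.0, and deposited estimated counts per gene as whole numbers with no normalization. Salmon divides reads between overlapping transcripts by likelihood, so genes with shared exons carry uncertain values.

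Genes were kept by filterByExpr (minimum count 10, minimum total 15), scaled by TMM and tested without a block in R 4.3.3 with edgeR 4.0.16 by its two-sided quasi-likelihood F-test, with Benjamini-Hochberg adjustment over 12669 genes. The fit was tested on simulated data that held no deviating library like shCtr replicate 2, so that test does not cover this feature of the data. SE is the Log2FC divided by the square root of F. The threshold of the study was a Log2FC beyond 0.5 with an unadjusted p under 0.05. GC offsets were natural splines (5 degrees of freedom each) of GC content and log2 transcript length, fitted per library to how far log2 CPM (prior count 2) lay from the gene's mean. Positions, overlaps and GC came from GENCODE M21. Floors cover counting error only. Likeness was Pearson's r of log2 CPM.

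Replicate numbers were taken to pair libraries, since the deviations of same-numbered libraries correlated at 0.811, 0.557 and 0.196, all above a limit of 0.1. The highest value between different numbers was 0.491, for shCtr replicate 3 with shOSGEP replicate 1, so the pairing of replicate 3 is uncertain. The shared numbers come from the labels, which do not say what a number marks. The genes and lists were chosen with earlier results of these data known. Named were the 9 genes, Osgep, of each further list the gene with the smallest p and all with p under 0.05, and the 2 genes most like each of the 9. Zcchc3, Ifnb1, Ifna4, Irf7, Hmgb1, Xrcc5, Dnase1l1 and the genes overlapping members, outside this rule, were named after their values were seen.

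Alternatives were DESeq2 1.42.0, limma-voom with quality weights (limma 3.58.1), RLE and upper-quartile scaling, other filters on low counts, a replicate block, the offsets, both together and leaving out each library or replicate number. The summed Trex1 and Atrip counts were added after seeing the data.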

Additional observations from a re-analysis of the deposited data

How the results depend on the processing

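With the replicate block 0 of the 9 genes passed the threshold of the study and 7 further pathway genes did, all higher, against 3 in the unblocked fit. The GC and length offsets gave 1 of the 9 and 6 further genes (5 higher and Hmgb1 lower), and the block with the offsets gave 2 and 11 (9 higher, Hmgb1 and Parp1 lower). The further genes numbered 5 with DESeq2, 6 with limma-voom, 5 with upper-quartile scaling and 5 with no filter on low counts, all higher. Calls over all genes rose too: they were 2.02% in the unblocked fit, 2.94% with the block, 5.46% with the offsets, 6.86% with both, 2.16% with DESeq2, 4.42% with limma-voom, 2.27% with upper-quartile scaling and 2.75% with no filter. Leaving out libraries gave 0 to 1 of the 9 and 0 to 5 further genes, the fewest without shOSGEP replicate 2. Over the same fits 0.516 to 3.5% of all genes passed, the fewest also without shOSGEP replicate 2. The median Log2FC of the 9 lay between -0.51 and -0.02, the lowest without shOSGEP replicate 1.

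The direction was not stable for 6 of the 9 genes. Over the fits that left out libraries it ranged from -0.54 to 0.22 for Cgas, -0.37 to 0.60 for Tbk1, -0.18 to 0.41 for Ikbke, -0.24 to 1.04 for Trex1 and -2.05 to 0.20 for Rnaseh2c. With limma-voom Tbk1 was at -0.13, Samhd1 at -0.02 and Rnaseh2c at 0.01, and with the offsets Tbk1 was at -0.06. Ikbke was at 0 with DESeq2 and with RLE scaling, and Trex1 with Atrip at -0.18. Sting1, Rnaseh2a and Rnaseh2b stayed negative under every alternative run. The cause of these changes was not tested.

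With 3 libraries a group and a biological coefficient of variation of 0.567, the intervals of the 9 genes were wide.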
